A study of Arabidopsis thaliana with 18 samples.

Results

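The comparison described here sets phytoprostane A1 (PPA1) directly against 12-oxo-phytodienoic acid (OPDA) in Arabidopsis thaliana plants of the accession Col-0. RNA levels were read from 6 single-colour Affymetrix arrays, 3 from plants given PPA1 and 3 from plants given OPDA, out of 18 arrays in all. Both compounds were used at 75 µM for 4 h, so dose and time were matched. The Col-0 control arrays, 3 in number, came from plants kept for 4 h in 0.5% methanol in water, and their level is given beside each difference. A further 3 PPA1 and 3 OPDA arrays came from the triple mutant tga2-5-6, which lacks the transcription factors TGA2, TGA5 and TGA6, at the same dose and time. The labels name plant material only, not the organ, the age or the growth conditions.

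Plastid enzymes make OPDA from linolenic acid, and further enzymes, among them a ligase for the intermediate OPC-8:0, convert it by beta-oxidation to the hormone jasmonic acid. PPA1 and other phytoprostanes arise when free radicals attack linolenic acid, with no enzyme involved. Both are cyclopentenones, whose reactive ring can bind thiols such as that of glutathione, and PPA1, unlike OPDA, carries a hydroxyl group in a side chain. In whole plant material, fewer cells of a type and less RNA per cell cannot be told apart.

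Of 21869 probe sets kept for testing, 781 (3.57%) differed between the compounds in Col-0, where passing required an adjusted p under 0.05 (limma, Benjamini-Hochberg over all kept probe sets) and at least a 2-fold difference. PPA1 gave the higher level for 304 of them (1.39%) and OPDA for 477 (2.18%). At an unadjusted p under 0.05 the count was 3750. The differences towards OPDA were the larger ones. Among the 477, 222 differed at least 4-fold, 111 at least 8-fold and 56 at least 16-fold, with a median log2 difference (PPA1 minus OPDA) of -1.87. Among the 304, 77 differed at least 4-fold, 21 at least 8-fold and 3 at least 16-fold, with a median of 1.43. Over all kept probe sets the median log2 difference was 0.08. The 3 PPA1 arrays did not overlap the 3 OPDA arrays for 303 of the 304 and for 477 of the 477. The calls were made on these same arrays, so this separation is largely built into them. Without any test, PPA1 arrays lay entirely above OPDA arrays for 12.8% of the kept probe sets and entirely below for 8.5%.

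**Figure D1:**
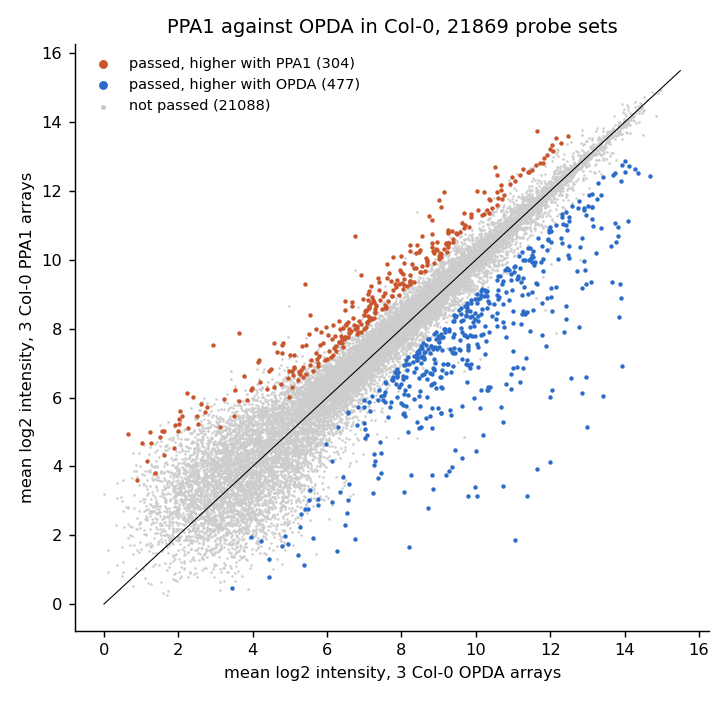
Mean log2 intensity of each probe set over the 3 Col-0 PPA1 arrays (vertical axis) against that over the 3 Col-0 OPDA arrays (horizontal axis). The 304 probe sets that passed higher with PPA1 are red, the 477 that passed higher with OPDA are blue and reach farther from the line of equal levels, and grey points did not pass.

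Median intensity ran from 159 to 185 over the arrays. Correlations of log2 values were 0.914 to 0.924 among the PPA1 arrays, 0.905 to 0.927 among the OPDA arrays and 0.881 to 0.908 between them. The 3'/5' ratio of the GAPDH control was 1.14 ± 0.394 with PPA1, 1.47 ± 0.461 with OPDA and 1.26 ± 0.107 in control (SD, n = 3 each), and its part in the results was not tested. The array annotation gave a single gene for 147 of the 304 probe sets and for 209 of the 477, and only these are named. Because most members of the gene lists have no probe set with a single gene in that annotation, the lists below are small. Counts of passing members stand against 1.39% of all kept probe sets higher with PPA1 and 2.18% higher with OPDA.

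Genes of jasmonate metabolism were among those with the largest differences towards OPDA. The single measured gene of the jasmonate turnover list, JRG21, passed, as did 1 of 2 of the jasmonate biosynthesis list, both higher with OPDA. The other gene of the biosynthesis list had a positive difference and did not pass, and that list's median was -0.03. JRG21, an oxidase that inactivates jasmonic acid by hydroxylation, read 29.3, 3.92 and 47.8 on the PPA1 arrays, 3878, 3479.9 and 5001 on the OPDA arrays, and 0.812, 14.6 and 28.1 in control. AT2G38240, its relative among the jasmonic acid oxidases, read 49.2, 55.4 and 16.3 with PPA1, 7403, 8399.7 and 8883 with OPDA, and 45.9, 123 and 97 in control. For both genes the OPDA arrays stood far above all others, while the PPA1 and control arrays overlapped. The log2 difference was -7.86 ± 0.72 (SE) for AT2G38240, with an adjusted p of 2.5e-05 in limma's fit. It was -7.85 ± 1.65 for JRG21 (adjusted p = 0.0118), and without PPA1 replicate 2, the lowest array, the adjusted p was 0.0599.

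OPCL1, the ligase that activates the OPDA-derived OPC-8:0 for beta-oxidation, read 577, 695 and 515 with PPA1, 2178, 2269.8 and 3209 with OPDA, and 573, 1132 and 529 in control. Its lowest OPDA array lay above every PPA1 and control array, at a log2 difference of -2.09 ± 0.27 (adjusted p = 0.00036). Among the other measured genes of jasmonate signalling and response, 1 of 10 passed, higher with OPDA, and 9 of the 10 had a negative difference, with a median of -1.41. The one that passed was JAL23, a jacalin-related lectin, at 35, 23.1 and 72.2 with PPA1, 2157, 1388 and 1676 with OPDA, and 29.5, 29.5 and 60 in control. Its call (-5.46 ± 1.39, adjusted p = 0.0358) was lost in 7 of the 9 fits that left out 1 Col-0 array, with adjusted p between 0.05 and 0.121. The spread in those fits came from arrays of both genotypes, and the tga2-5-6 control arrays of JAL23 read 15.6, 2036 and 29.9. The call held in the fits to the 6 PPA1 and OPDA arrays and to the 9 Col-0 arrays alone.

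JMT, which methylates jasmonic acid, read 56.8, 69.4 and 6.1 with PPA1, 743, 803 and 924 with OPDA, and 42.2, 76.3 and 40.3 in control, and missed the threshold (-4.83 ± 1.32, adjusted p = 0.0519). The thionin gene THI2.1 averaged 29.2 with PPA1, 193 with OPDA and 16.2 in control (adjusted p = 0.136). The OPDA arrays of JMT and THI2.1 all lay above their PPA1 arrays, as they did for 8.5% of all kept probe sets. The defensin gene PDF1.2, a marker of combined jasmonate and ethylene signalling, varied within both groups, at 3456, 104 and 299 with PPA1 and 5398, 1184 and 4782 with OPDA, against 2020.3, 1086 and 167 in control. The groups overlapped there, and the 95% interval of the difference ran from -6.18 to 0.74. MYC3 and MYC4, transcription factors that jasmonate releases from repression, had differences of -0.16 (interval -0.72 to 0.39) and -0.60 (-1.06 to -0.14) and did not pass.

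Most other genes with the largest differences towards OPDA are known here by locus only. AT3G28220, a TRAF-like gene, read 15.2, 15.6 and 2.94 with PPA1, 3273, 2267 and 2482 with OPDA, and 42.5, 12.6 and 42.3 in control (adjusted p = 0.00099). AT1G54020, a lipase-like gene, read 10.1, 3.79 and 32.6 with PPA1, 2369.8, 1630.2 and 1303 with OPDA, and 24.7, 69.2 and 63.1 in control (adjusted p = 0.00099). Both PPA1 means were below 16, the level used to filter dim probe sets, so only the levels are given. AT4G22610 read 73.3, 38.6 and 94.8 with PPA1, 5386, 4304 and 2936 with OPDA, and 408, 467 and 371 in control. Its control arrays lay between the compounds. The log2 difference from control was -2.68 for PPA1 (adjusted p = 0.00402) and 3.3 for OPDA (adjusted p = 0.00051), and that between the compounds was -5.98 ± 0.45 (adjusted p = 7.2e-06).

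AT5G19110 read 59.7, 76.7 and 89.7 with PPA1, 4591, 3543 and 4620 with OPDA, and 120.1, 178 and 148 in control, a log2 difference of -5.83 ± 0.50 (adjusted p = 1.7e-05). BGLU24, a beta-glucosidase that by its family releases glucose from glycosides, read 13.5, 34 and 24.9 with PPA1, 633, 927 and 554 with OPDA, and 29.3, 10.8 and 36.1 in control (-4.93 ± 0.60, adjusted p = 0.00022). It was 1 of 3 BGLU genes, among 20 measured, that passed, all higher with OPDA, against 2.18% of all kept probe sets. For BGLU24 the PPA1 and control arrays shared 1 range, far below the OPDA arrays. The ranking by size also gave AT4G17470, AT4G11210, AT1G52000, AT1G66100, AT5G35940, AT4G02360 and AT1G76640. In each of these 7 the OPDA mean was at least 547 and the PPA1 mean at most 88.1. Of these, AT4G17470 lost its call in 3 of the fits without 1 Col-0 array (adjusted p up to 0.0672) and the calmodulin-like gene AT1G76640 in 4 of them (up to 0.0739). AT1G76640 also had an adjusted p of 0.07 with a replicate block, and AT4G02360 one of 0.0584 in a fit to the 6 PPA1 and OPDA arrays alone.

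Tau-class glutathione S-transferases attach glutathione to reactive compounds. Among 11 measured members, 1 passed higher with PPA1, 1 passed higher with OPDA, 9 did not pass, and the median was 0.40. GSTU26 read 236, 294 and 205 with PPA1, 5201, 5819 and 5027 with OPDA, and 586, 447 and 445 in control. Its PPA1 arrays all lay below the control arrays and its OPDA arrays all above them, although the difference of PPA1 from control did not pass (-1.01, adjusted p = 0.0867). The difference between the compounds was -4.46 ± 0.30 (adjusted p = 4.1e-06), the OPDA mean being 22-fold the PPA1 mean on the log scale.

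GSTU22 went the other way, with 2603, 1447 and 1219 under PPA1, 472, 277 and 415 under OPDA, and 164, 135 and 94.8 in control. The 3 groups did not overlap, and both compounds lay above control, by 3.70 for PPA1 (adjusted p = 1.9e-05) and 1.56 for OPDA (adjusted p = 0.00549) on the log2 scale. The direct difference was 2.13 ± 0.30 (adjusted p = 0.0007), or 0.0597 in a fit to the 6 arrays alone. GSTU25 read 7493, 6106 and 6381 with PPA1, 3277, 2766 and 2862 with OPDA, and 305, 282 and 178 in control. Its groups did not overlap either, but the difference of 1.16 ± 0.44 did not pass (adjusted p = 0.18). GSTU20 and GSTU27 had intervals of -0.78 to 0.01 and -0.02 to 0.82, within 2-fold either way.

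Of 5 methionine sulfoxide reductases found by keyword, enzymes that repair oxidised methionine, 2 passed, both higher with OPDA, and the median was -0.47. This group was chosen after its values were seen, and 2.18% of all kept probe sets passed higher with OPDA. MSRB6 read 288, 224 and 180.3 with PPA1, 4928, 2912 and 3082 with OPDA, and 215, 251 and 276 in control (-3.96 ± 0.31, adjusted p = 1.1e-05). MSRB9 read 1689, 2362 and 2503 with PPA1, 12535, 14590.3 and 13719 with OPDA, and 2185, 3349.8 and 2104 in control (-2.66 ± 0.27, adjusted p = 5.4e-05). The PPA1 and control arrays overlapped for both genes, and no OPDA array reached into their range. The other members of that group, MSRB3, MSRB5 and MSRA5, did not pass, with differences of 0.40, -0.47 and -0.06.

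In the lists of sulfur use and glucosinolate formation, 1 of 3 sulfate assimilation genes and the single measured gene of the indole glucosinolate list passed, both higher with OPDA, and 0 of 2 aliphatic glucosinolate genes passed. UGT74B1, the glucosyltransferase that makes desulfoglucosinolates, read 1535, 2113 and 1738 with PPA1, 3845, 4179.8 and 4009 with OPDA, and 1542, 1776 and 1655 in control (-1.17 ± 0.19, adjusted p = 0.00165). APS3, an ATP sulfurylase of sulfate assimilation, read 1004, 991 and 1058 with PPA1, 2615, 2101 and 3096 with OPDA, and 747, 1053 and 1008 in control (-1.34 ± 0.23, adjusted p = 0.00362). In both, PPA1 and control arrays overlapped below the OPDA arrays. SIR, the sulfite reductase, differed by -0.64 ± 0.15 (adjusted p = 0.0197), under the 2-fold limit, and APS4 by -0.12 (interval -0.68 to 0.44). BCAT4, an aminotransferase of aliphatic glucosinolate synthesis, averaged 3599.8 with PPA1, 6628 with OPDA and 5577 in control, also a difference under 2-fold (-0.88 ± 0.18, adjusted p = 0.0102).

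Sugar, cell-wall and secondary metabolism families contributed further genes higher with OPDA. Of 14 measured SWEET sugar transporters, 2 passed, both higher with OPDA, against 2.18% of all kept probe sets, and the family median was -0.42. SWEET16, a transporter of the vacuolar membrane, read 71.2, 114 and 145 with PPA1, 559.6, 719.9 and 499 with OPDA, and 264, 181 and 188 in control, so that the control arrays lay between the compounds (-2.47 ± 0.30, adjusted p = 0.00022). SWEET17 averaged 905 with PPA1, 2145 with OPDA and 1450.3 in control (adjusted p = 0.0163, and 0.0602 or 0.0623 without OPDA replicate 3 or PPA1 replicate 2). Of 22 TBL genes, whose family acetylates wall polysaccharides, TBL26 and TBL37 passed, both higher with OPDA. TBL26 read 387, 323 and 152 with PPA1, 2221, 1592 and 1446 with OPDA, and 365, 558 and 389 in control (-2.69 ± 0.32, adjusted p = 0.00022).

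Of 47 measured UGT glycosyltransferases, 1 passed higher with PPA1 and 3 higher with OPDA. The shares over all kept probe sets were 1.39% and 2.18%. UGT78D1, a flavonol rhamnosyltransferase, read 514, 430.4 and 467 with PPA1, 1568, 1308 and 1802 with OPDA, and 579.5, 733 and 799 in control (-1.72 ± 0.22, adjusted p = 0.00032). UGT71C3 averaged 205 with PPA1, 782 with OPDA and 262 in control (-1.93 ± 0.30, adjusted p = 0.00149). In both genes all OPDA arrays stood above all PPA1 and control arrays. GH3.3, which conjugates the auxin indole-3-acetic acid to amino acids, read 208, 349 and 268 with PPA1, 1228, 1015 and 1474 with OPDA, and 199, 184 and 248 in control (-2.19 ± 0.25, adjusted p = 0.00015). It was the only one of the 9 measured genes of the auxin list to pass, and the list's median was 0.31. The list does not hold IAGLU, an auxin glucosyltransferase that passed higher with PPA1 and is described below.

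**Figure D2:**
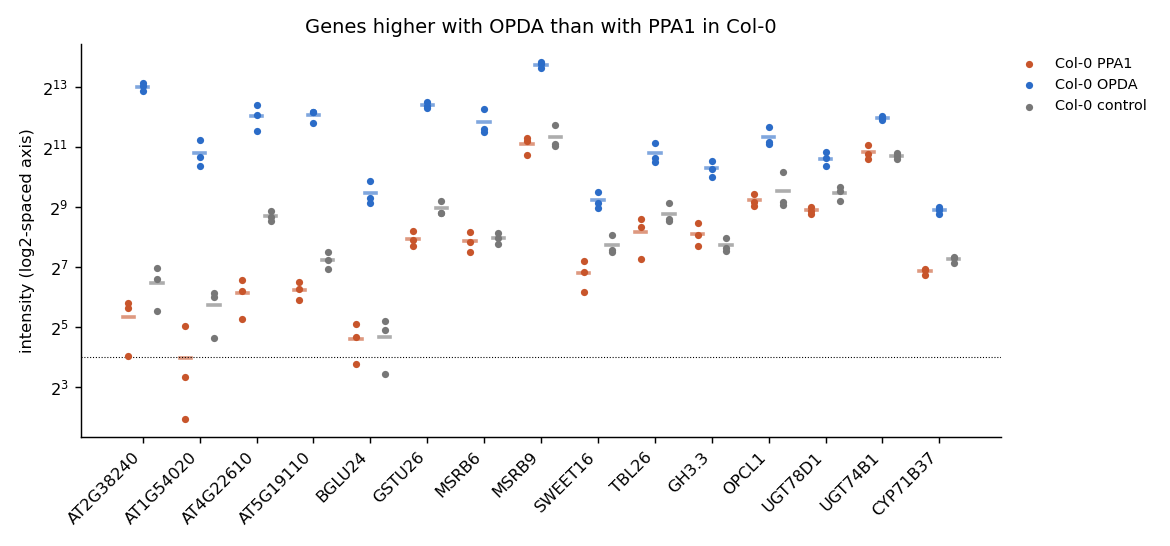
Intensity on each Col-0 array (log2-spaced axis) for 15 genes that passed higher with OPDA, with PPA1 arrays in red, OPDA arrays in blue and control arrays in grey; short bars are means of 3 arrays, and the dotted line marks 16. In each gene the 3 OPDA arrays lie above the 3 PPA1 arrays; in AT4G22610 the control arrays lie between them, and in BGLU24 and MSRB6 they overlap the PPA1 arrays.

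Among probe sets with 1 gene, ranked after values under 16 were raised to 16, AT4G36610, a hydrolase, had the largest difference towards PPA1. It read 1272, 1807 and 1945 with PPA1, 165, 76 and 101 with OPDA, and 166, 188 and 173 in control. The PPA1 arrays stood far above the others, and the OPDA arrays lay just below the control arrays. PPA1 differed from control by 3.23 (adjusted p = 0.00078) and OPDA by -0.70 (adjusted p = 0.398), and PPA1 from OPDA by 3.93 ± 0.44 on the log2 scale (adjusted p = 0.00012).

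Among 7 measured genes of electrophile and xenobiotic detoxification, 2 passed, both higher with PPA1, 6 had a positive difference, and the median was 1.29. Over all kept probe sets 1.39% passed higher with PPA1. AER, the alkenal reductase that reduces the double bond of reactive carbonyls, read 4207, 5104 and 4999 with PPA1, 2296, 1764 and 1802 with OPDA, and 740.4, 1349 and 1101 in control (1.29 ± 0.22, adjusted p = 0.00277). Its tandem paralogue AT5G16980 read 728, 986 and 1156 with PPA1, 225, 164 and 209 with OPDA, and 141, 274 and 171 in control (2.25 ± 0.38, adjusted p = 0.00268). The OPDA arrays lay above control for AER and within the control range for AT5G16980. Probe sets of such close paralogues can share signal.

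UGT73B5, a glycosyltransferase of stress responses, read 816, 1523 and 2158 with PPA1, 237, 354 and 326 with OPDA, and 120.2, 110.5 and 80.2 in control. Its 3 groups did not overlap, at 2.21 ± 0.36 between the compounds (adjusted p = 0.00211, or 0.0689 in the fit to the 6 arrays alone). Its relative UGT73B4 read 871, 1019 and 1341 with PPA1, 278, 200.3 and 369.8 with OPDA, and 37.7, 43 and 8.19 in control, without overlap, but did not pass (1.95 ± 0.74, adjusted p = 0.177). AOR, an oxidoreductase of alkenals, differed by 0.53 (interval 0.20 to 0.85), and ALDH7B4, an aldehyde dehydrogenase, by -0.56 (-1.04 to -0.09).

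Several genes were higher with PPA1 and had OPDA arrays below both other groups. AT1G65490 read 3888, 2038 and 3305 with PPA1, 668, 543 and 415 with OPDA, and 2377, 2224 and 3797 in control (2.48 ± 0.33, adjusted p = 0.00039). CYP71B23, a cytochrome P450 monooxygenase, read 377, 511 and 460.1 with PPA1, 61.3, 85 and 134 with OPDA, and 201, 389 and 363 in control (2.33 ± 0.30, adjusted p = 0.00038). AT2G44370 averaged 112 ± 33.9 with PPA1, 22.4 ± 7.32 with OPDA and 196 ± 38.4 in control (SD, n = 3 each, 2.34 ± 0.29, adjusted p = 0.00029). Of 25 measured CYP genes, 2 passed higher with PPA1 and 3 higher with OPDA, against 1.39% and 2.18% of all kept probe sets. For AT1G65490 and CYP71B23 the PPA1 and control arrays overlapped, and for AT2G44370 the control arrays were the highest. OPDA differed from control by -2.35, -1.78 and -3.17 in AT1G65490, CYP71B23 and AT2G44370, each of which passed (adjusted p = 0.00055, 0.00245 and 3.9e-05).

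The other genes in the ranking by size varied in how firmly they were called. AT3G22620 read 2949, 4213 and 3232 with PPA1, 891, 351 and 451 with OPDA, and 1129.7, 1001 and 957 in control (2.72 ± 0.33, adjusted p = 0.00021), so that control lay between the compounds. Both probe sets of AT1G31050 passed higher with PPA1, at 2.49 ± 0.44 and 1.48 ± 0.28. AT1G56320 averaged 1117 with PPA1, 265 with OPDA and 501 in control, and scpl31, a serine carboxypeptidase-like gene, 150.4, 32.5 and 64.1 in the same groups. AT1G60750, an aldo-keto reductase, read 632, 621 and 628 with PPA1, 70.7, 31.9 and 34.7 with OPDA, and 21.1, 1.96 and 18.4 in control, but its adjusted p of 0.0408 was between 0.0635 and 0.119 in each fit without 1 PPA1 or OPDA array. AT1G26380 (adjusted p = 0.0138) had 0.0605 without OPDA replicate 1 and 0.0534 without PPA1 replicate 2. AT4G00910, with an OPDA mean below 16, had 0.0573 without PPA1 replicate 2, and AT2G28780 had 0.133 in the fit to the 6 arrays.

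A further set was named after its values were seen, for what the products do. EXLA1, an expansin-like wall protein, read 972, 975 and 917 with PPA1, 266, 272 and 264 with OPDA, and 1316, 1046 and 1405 in control (1.84 ± 0.26, adjusted p = 0.00077). CP1, a cysteine proteinase, read 466, 527 and 574 with PPA1, 151, 118 and 141 with OPDA, and 102, 144 and 136 in control (1.94 ± 0.38, adjusted p = 0.00787). The OPDA arrays were the low ones for EXLA1 and overlapped control for CP1. IAGLU, which glucosylates indole-3-acetic acid, read 1473, 1473 and 2667 with PPA1, 600, 548 and 672 with OPDA, and 491, 479 and 449 in control (1.57 ± 0.23, adjusted p = 0.00085, or 0.0681 in the fit to the 6 arrays). OCT5, an organic cation transporter, read 1036, 1145 and 1556 with PPA1, 421, 428 and 535 with OPDA, and 326, 383 and 301 in control (1.42 ± 0.27, adjusted p = 0.00696). For IAGLU and OCT5 no PPA1 array overlapped either other group.

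In the lists of heat shock genes, 0 of 1 small heat shock protein and 0 of 3 other factors and chaperones passed. A wider group of 8 chaperone genes, formed after the values were seen, had 1 that passed, higher with PPA1, and a median of 0.24. That gene, Fes1A, and AT5G51440 were named after their values were seen. Fes1A, a nucleotide exchange factor of HSP70, read 2257, 4747 and 6122 with PPA1, 1278, 1078 and 1252 with OPDA, and 666, 594 and 443 in control (1.75 ± 0.35, adjusted p = 0.00846, or 0.123 in the fit to the 6 arrays). AT5G51440, a mitochondrial small heat shock protein, read 1857, 1606 and 3308 with PPA1, 983, 628 and 816 with OPDA, and 719.6, 488 and 707 in control (1.43 ± 0.28, adjusted p = 0.00832, or 0.138 in that fit and 0.0572 in a fit to the 9 Col-0 arrays). In both genes the PPA1 arrays lay above the OPDA arrays and spread more widely. HSA32, Hop3 and AT5G48570, the 3 measured members of the list of other heat shock factors and chaperones, had differences of 0.95, 1.09 and 1.21 and did not pass (adjusted p = 0.201, 0.145 and 0.0562). ATHSP22.0 read 287, 2089 and 4404 with PPA1, 1188, 908 and 972 with OPDA, and 37, 121 and 44.3 in control, with overlapping compound groups (0.44, interval -1.38 to 2.27).

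**Figure D3:**
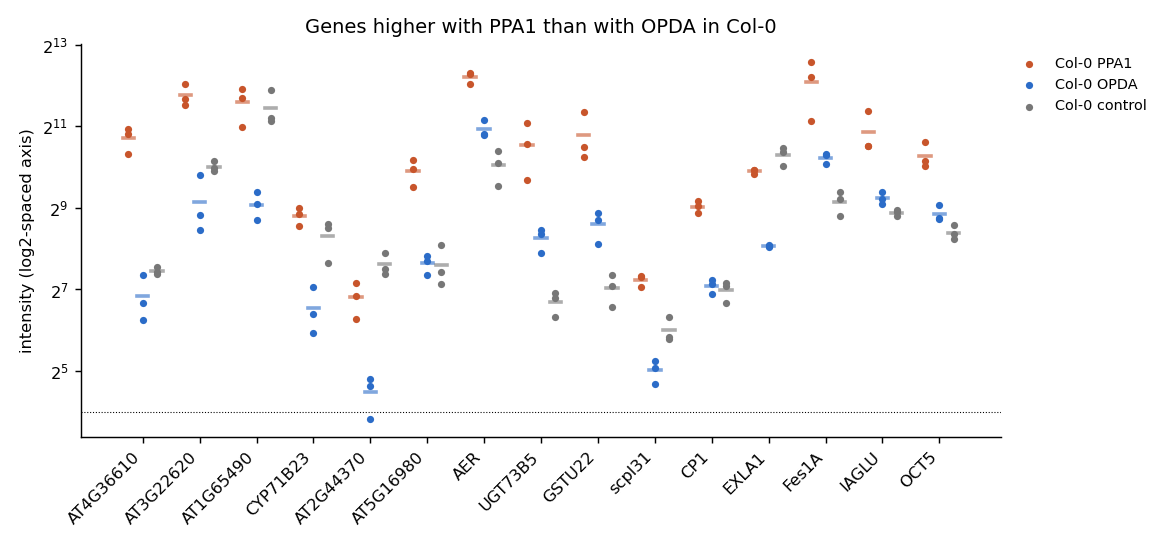
Intensity on each Col-0 array (log2-spaced axis) for 15 genes that passed higher with PPA1, with PPA1 arrays in red, OPDA arrays in blue and control arrays in grey; short bars are means of 3 arrays, and the dotted line marks 16. In AT4G36610 and AT5G16980 the PPA1 arrays stand apart from OPDA and control, in UGT73B5 and GSTU22 control is lowest, and in AT1G65490, CYP71B23, AT2G44370 and EXLA1 the OPDA arrays are lowest.

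The place of the control level differed between the directions. Of the 477 probe sets higher with OPDA, the control mean was nearer to PPA1 in 400 and nearer to OPDA in 77. It lay between the compounds in 330, below both in 132 and above both in 15. Of the 304 higher with PPA1, the control mean was nearer to PPA1 in 166 and nearer to OPDA in 138. It lay between the compounds in 174, below both in 66 and above both in 64. GSTU22 and UGT73B5 are examples with control below both, CYP71B23 and AT4G22610 with control between, and EXLA1 and AT2G44370 with control above both. These counts compare means without a test, and the same control arrays serve both compounds.

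Transcription factors and hormone markers outside jasmonate showed few differences that held. WRKY53 and WRKY6, both senescence-linked factors, passed higher with PPA1 among 6 WRKY genes measured, against 1.39% of all kept probe sets. They were 2 of 4 genes of the senescence list, and WRKY53 was 1 of 3 of the salicylic acid list. WRKY53 read 151, 179 and 205 with PPA1, 98.2, 100.5 and 64.9 with OPDA, and 131, 270 and 146 in control. WRKY6 read 429.6, 812 and 872 with PPA1, 268, 284 and 359 with OPDA, and 146, 236 and 137 in control. The compound groups did not overlap in either gene, but the calls were near the threshold (adjusted p = 0.0283 and 0.0349). WRKY53 lost its call without PPA1 replicate 2 or 3 or OPDA replicate 3 (adjusted p = 0.0835, 0.109 and 0.12), and WRKY6 in 5 of the 9 fits without 1 Col-0 array (up to 0.142).

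Of 3 measured genes of the abscisic acid response 1 passed, and the list's median was -0.07. COR47, a dehydrin and the one that passed, read 5168, 7229 and 10116 with PPA1, 3725, 3151 and 3942 with OPDA, and 4023, 3503 and 4127 in control. The PPA1 arrays were all above the OPDA arrays (1.01 ± 0.23, adjusted p = 0.0176), with the call lost without PPA1 replicate 2 or 3 or OPDA replicate 2 (adjusted p = 0.0565, 0.072 and 0.0722). COR15A averaged 118 with PPA1, 409 with OPDA and 129.6 in control and did not pass (adjusted p = 0.175), nor did COR15B at -0.07. EIN3, a transcription factor of ethylene signalling, differed by -0.59 ± 0.11 (adjusted p = 0.00545), less than 2-fold. GRX480, a glutaredoxin of the salicylic acid response, averaged 195 with PPA1, 309 with OPDA and 31.3 in control, and its interval of -2.14 to 0.82 leaves the direction unresolved.

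In several lists no member passed, and the intervals say how far they could differ. All 9 measured photosynthesis genes had intervals within 2-fold either way and a median of -0.00. PSAE-1, a photosystem I subunit, averaged 18095 with PPA1, 18251 with OPDA and 18338 in control, with an interval of -0.38 to 0.36. The same held for all 4 mitotic genes and for all 4 endoplasmic reticulum stress genes, of which 3 had a positive difference, with a median of 0.16. The endoplasmic reticulum gene with a negative difference was ATERDJ3B, a co-chaperone of that compartment, at -0.66 (-0.93 to -0.39). The endoplasmic reticulum list does not hold CRT1b, a calreticulin named after its values were seen. CRT1b passed higher with OPDA, with means of 3368, 6996 and 4404 for PPA1, OPDA and control (-1.06 ± 0.13, adjusted p = 0.00022). Its call was lost in 2 of the 9 fits without 1 Col-0 array, through the 2-fold limit and not the adjusted p (0.00142 and 0.00158). In the fit to the 6 arrays the adjusted p was 0.0571. None of 6 genes of the calcium-signalling list passed, 4 having a positive and 2 a negative difference, with a median of 0.35. CML41 and CML38 had differences of -1.12 and -1.02 with intervals reaching 0.10 and -0.01. CML37 had a difference of 1.13 (interval -0.40 to 2.67). The list does not hold AT1G76640, the calmodulin-like gene that passed higher with OPDA, 1 of 8 genes in a calmodulin-like group formed after the values were seen. Of the 15 genes of the cell-wall loosening list, which does not hold EXLA1, only XTH20 passed, with means of 112, 326 and 210.5 for PPA1, OPDA and control (-1.60 ± 0.32, adjusted p = 0.00852, or 0.0871 in the fit to the 6 arrays). The leaf and root markers did not differ past the threshold. PYK10, a beta-glucosidase abundant in roots and seedlings, averaged 16078 with PPA1, 20490.4 with OPDA and 17839.7 in control, and the photosynthesis genes were bright on the same arrays, so RNA of green and of root tissue cannot be told apart here.

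**Figure D4:**
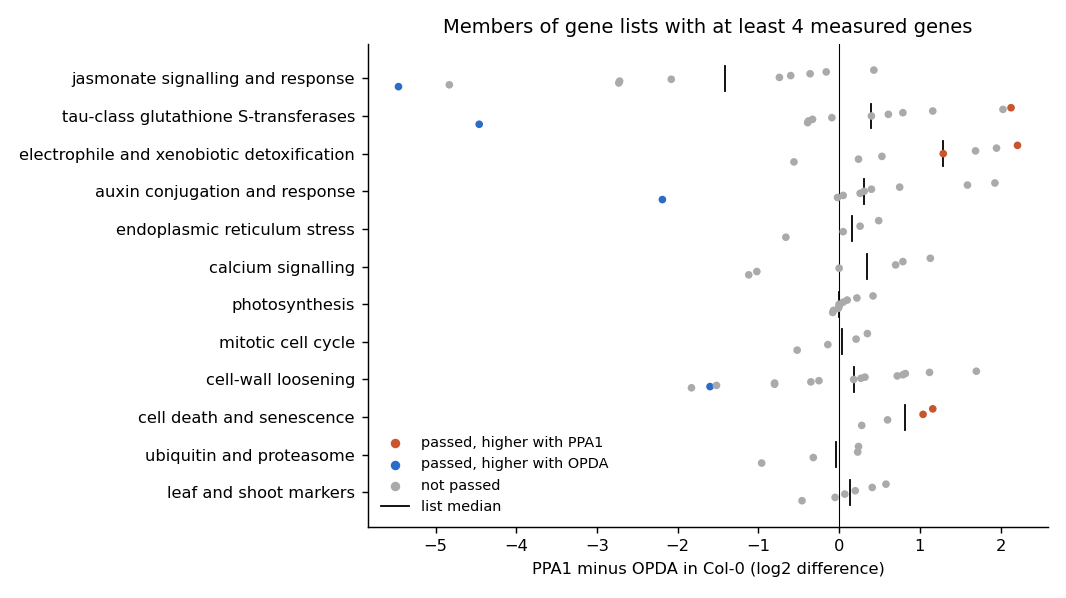
Log2 difference (PPA1 minus OPDA in Col-0) of each measured member of the gene lists with at least 4 measured genes; red and blue points passed higher with PPA1 or OPDA, grey points did not pass, and black bars are list medians. The median is -1.41 for jasmonate signalling and response and 1.29 for electrophile and xenobiotic detoxification, against 0.08 over all kept probe sets, and the photosynthesis genes lie close to 0.

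For 11199 probe sets (51.2%) the whole 95% interval of the difference lay within 2-fold either way, and for 9889 (45.2%) the arrays neither passed nor bounded the difference that closely. Only 9 of the 11199 were also at least 4-fold from control with both compounds, 2 higher and 7 lower than control. XTH19, a xyloglucan endotransglucosylase that remodels walls, read 263, 165 and 172 with PPA1, 185, 150.3 and 185 with OPDA, and 913, 975 and 1047 in control. AT1G30870 read 209.6, 328 and 231 with PPA1, 245, 271 and 286 with OPDA, and 1809, 973 and 1035 in control. In both genes the compound groups overlapped and lay well below control, with differences between the compounds of 0.18 (interval -0.46 to 0.82) and -0.09 (-0.62 to 0.45). AT5G43520, AT3G62280 and AT3G01260 were also lower than control under both compounds, with intervals of -0.82 to 0.97, -0.52 to 0.72 and -0.86 to 0.31. NDB2, a mitochondrial NADH dehydrogenase, was above control under both, at 2462, 2567 and 2986 with PPA1, 2621, 2415 and 2205 with OPDA, and 589, 952 and 602 in control, and its interval between compounds was -0.28 to 0.57.

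The same contrast was taken between the PPA1 and OPDA arrays of tga2-5-6. Those arrays do not enter the Col-0 means, but they share the filter and the estimate of spread behind the Col-0 calls. There 3.57% of the kept probe sets passed, 1.25% higher with PPA1 and 2.31% higher with OPDA. Of the 477 probe sets higher with OPDA in Col-0, 469 (98.3%) had the same sign in the mutant, 334 (70%) passed there in the same direction and 0 in the opposite one. Of the 304 higher with PPA1, 285 (93.8%) had the same sign, 130 (42.8%) passed in the same direction and 0 in the opposite one. Over all kept probe sets the difference in the mutant was positive in 55% and negative in 45%. The median log2 difference in the mutant was -1.65 for the 477 and 1.03 for the 304.

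AT4G36610, AT5G16980 and IAGLU had smaller measured differences in the mutant. AT4G36610 read 79.3, 201 and 68.9 with PPA1 and 41.4, 111 and 67 with OPDA in tga2-5-6, at 0.61 on the log2 scale (adjusted p = 0.553). AT5G16980 had a difference of -0.02 there and IAGLU one of 0.37, and neither passed. By contrast AT2G38240 read 431, 368 and 61.2 with PPA1 and 8442, 9970.4 and 8699 with OPDA in the mutant (-5.40, adjusted p = 0.00054). GSTU26 and GSTU22 kept differences of -3.94 and 1.98, and both passed. The test of the genotype difference itself found 0 probe sets in limma's fit, with 956 at an unadjusted p under 0.05 and a smallest adjusted p of 0.209, so no gene's difference was shown to depend on the genotype. Counts under other settings were 0 to 2.

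**Figure D5:**
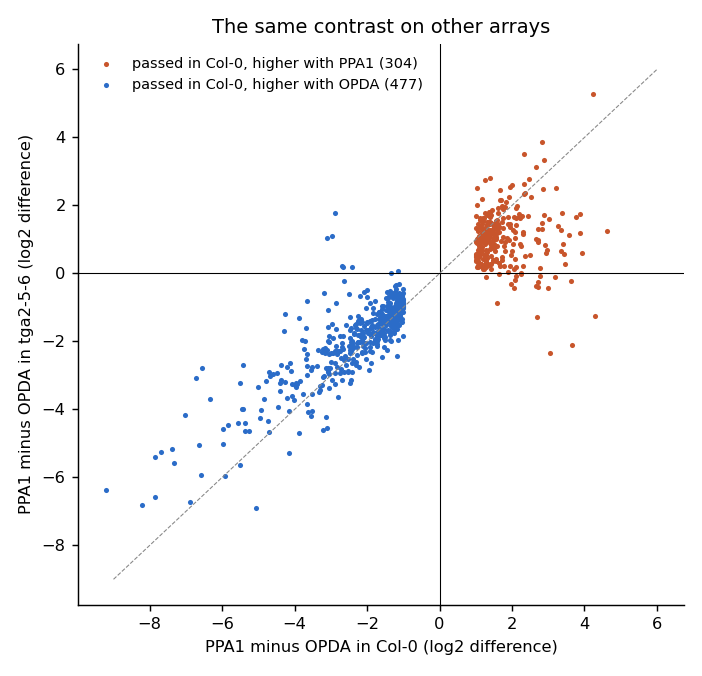
Log2 difference PPA1 minus OPDA in tga2-5-6 (vertical axis) against that in Col-0 (horizontal axis) for the 781 probe sets that passed in Col-0, red where higher with PPA1 and blue where higher with OPDA; the dashed line marks equal differences. The sign was the same in the mutant for 285 of the 304 red and 469 of the 477 blue probe sets.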

How the data were processed

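The deposited values are linear microarray intensities, which the authors gave for every probe set of each array; the submitters' processing notes name GCRMA, but the values are neither log2 nor quantile-normalized, and the algorithm is not given in the sources used here. Each array had been scaled to a common level. Values under 1 were set to 1 and log2-transformed without further normalization. The 64 array controls among 22810 probe sets were dropped, and 21869 with at least 16 on at least 3 of 18 arrays were kept. Symbols came from the array annotation through TAIR10.1; 12848 kept probe sets had 1 gene and 9021 none or several. A group-means model over 6 groups of 3 arrays was fitted in R 4.3.3 with the package limma 3.58.1, which left 12 residual degrees of freedom, with two-sided tests and Benjamini-Hochberg adjustment over all kept probe sets; ± after a log2 difference is its standard error, and intervals are 95% intervals unadjusted for the number of genes. The contrast, the gene lists and the tests were chosen with earlier results of these data known. A rule picked genes to name. It took the 15 highest and 15 lowest passing differences after raising values under 16 to 16. It added up to 3 passing members per list or family and direction (otherwise the largest difference), and the 5 narrow-interval genes farthest from control. Not all genes that the rule picked are described. Further list members and other genes were added with their values known, and not each of them is marked so in the text. The labels call the replicates independent. Neither labels nor files give a scan batch, and no pair of arrays was identical. The number of arrays limits the precision. No sequences are shown, since none were used here.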

Additional observations from a re-analysis of the deposited data

How the results depend on the processing

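The total of 781 stayed between 674 and 900 when arrays were centred or quantile-normalized, low values floored, offset or filtered otherwise, the fit limited to the 9 Col-0 arrays or made with trend and robust moderation. Fitted to the 6 PPA1 and OPDA arrays alone, 484 passed, 138 of them higher with PPA1 (28.5%, against 38.9% of the 781), and 69 of 106 single calls held; these are the called probe sets followed through the settings, some of them not named in the text. Each array except those of the tga2-5-6 control was left out in turn, in 15 fits. These gave 625 to 795 in total, 209 to 309 higher with PPA1, 386 to 488 higher with OPDA and 10228 to 11174 narrow intervals. Of the probe sets that passed in Col-0, 86 to 125 then passed higher with PPA1 in the mutant (86 without tga2-5-6 PPA1 replicate 3) and 270 to 330 higher with OPDA. The genotype difference passed for 2 probe sets with a floor of 16, 2 with an offset of 16, 1 with trend and robust moderation and 0 to 2 without 1 array. Among the single genes followed, no Col-0 difference that passed in the main fit or in a setting changed direction in that setting. Changes of direction were not followed for differences that passed in neither. Of the same 106, 68 kept their call in all 9 fits without 1 Col-0 array. Same-numbered PPA1 and OPDA arrays correlated at 0.01, 0.02 and 0.02 in their deviations, and each correlated best with its own number. Correlations this small over all kept probe sets do not settle whether the replicate numbers pair the arrays. The fit with a replicate block passed 786, 312 higher with PPA1 and 474 higher with OPDA, and 1 for the genotype difference. The causes of these shifts were not tested. Promoter motifs, planned, were not run.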

Other observations

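Several small gene groups were formed after the values were seen, by keywords in gene symbols and synonyms, and carry no test as groups. Such groups can miss genes of a kind or hold others. The flavonoid group, for example, does not hold UGT78D1, described above. Over all kept probe sets 2.18% passed higher with OPDA. Passing higher with OPDA were 2 of 3 ER body genes, 2 of 4 flavonoid genes, 2 of 4 jacalin-related lectins and 1 of 2 glucosinolate transporters, and in none of these groups did a gene pass higher with PPA1. Proteins of the ER body, a compartment that stores beta-glucosidases, are encoded by NAI2, PYK10 and, for their regulator, NAI1. NAI2 read 2473, 3141 and 2756 with PPA1, 7734, 7759 and 7803 with OPDA, and 4920.4, 4636 and 3536 in control, with no overlap of the compound groups (-1.48 ± 0.16 on the log2 scale, adjusted p = 8.9e-05). NAI1 averaged 268 with PPA1, 926 with OPDA and 243 in control (adjusted p = 0.0196, lost in 4 of the 9 fits without 1 Col-0 array, with adjusted p up to 0.0769), and PYK10 differed by -0.35 (adjusted p = 0.171). Of the flavonoid genes, DFR, the dihydroflavonol reductase of anthocyanin synthesis, read 227, 223 and 249.5 with PPA1, 1160.2, 842 and 1622 with OPDA, and 122, 453 and 408 in control (-2.32 ± 0.45, adjusted p = 0.00686, or 0.0512 in the fit to the 9 Col-0 arrays). The anthocyanin glycosyltransferase gene UF3GT averaged 132 with PPA1, 622 with OPDA and 126 in control (adjusted p = 0.015, 0.0908 in that fit, 0.0706 without PPA1 replicate 3 and 0.061 without OPDA replicate 3). CHIL and UGT80B1, the other members found by keyword, did not pass, at -0.47 and -0.46.

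GTR1, a glucosinolate transporter, read 594, 881 and 795 with PPA1, 2097, 2177 and 2448 with OPDA, and 706, 813 and 652 in control (-1.58 ± 0.18, adjusted p = 0.00015), while GTR2 differed by -0.75, under the 2-fold limit. AT2G04400, a gene of tryptophan synthesis, read 2469.7, 3043 and 3203 with PPA1, 8815, 6905 and 7600 with OPDA, and 1911, 2077 and 1538 in control (-1.42 ± 0.23, adjusted p = 0.00209). JAL34, a jacalin-related lectin, read 4691, 5902 and 6675 with PPA1, 12987, 12768 and 13855 with OPDA, and 9157, 7205 and 6595 in control (-1.21 ± 0.19, adjusted p = 0.00141). BSMT1, which methylates salicylic and benzoic acid, read 14, 2.43 and 30.5 with PPA1, 634, 364 and 428 with OPDA, and 22.9, 4.52 and 7.79 in control (adjusted p = 0.0125, or 0.0612 without PPA1 replicate 2). In each of these genes the OPDA arrays lay above every PPA1 array. Of 6 peroxidase genes found by keyword, 1 passed in each direction, and the median was -0.85. AT5G66390 (peroxidase 72) was higher with PPA1, at 1265, 1406 and 1084 with PPA1, 598, 483 and 441 with OPDA, and 673, 725 and 477 in control (1.31 ± 0.17, adjusted p = 0.00036). AT2G41480 (peroxidase 25) was higher with OPDA, at 167, 143 and 133 with PPA1, 253, 403 and 340.1 with OPDA, and 234, 227 and 283 in control (-1.15 ± 0.25, adjusted p = 0.0144). Its call was lost in 4 of the 9 fits without 1 Col-0 array (adjusted p 0.0519 to 0.0657) and in the fit to the 6 arrays (0.0871).

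Dim probe sets held less well in the mutant. Where the mean of the 6 arrays was at least 64, 446 of 446 probe sets higher with OPDA had the same sign in tga2-5-6 and 325 passed, and of those higher with PPA1, 256 of 262 had the same sign and 126 passed. Under 64, the same sign held in 23 of 31 higher with OPDA and 29 of 42 higher with PPA1. AT1G20290, AT3G16960 and AT1G56030 passed in Col-0 and had non-overlapping arrays in the opposite direction in tga2-5-6, as did 1 probe set without a gene name. All 3 named genes had a mean below 16 in at least 1 compound group.

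In the TAIR10.1 gene order, 5436 pairs of neighbouring genes were measured. Both neighbours passed higher with OPDA in 10 pairs, among them AT5G19100, AT5G19110 and AT5G19120 in a row, and both higher with PPA1 in 2, AER with AT5G16980 and AT5G01740 with AT5G01750. In 0 pairs did neighbours pass in opposite directions. Neighbouring paralogues can share probe signal.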
